A study of Rattus norvegicus with 20 samples.

Results

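Cholesterol synthesis and lipoprotein receptors were followed here through 8 genes, Hmgcs1, Idi1, Fdps, Fdft1, Sqle, Cyp51, Insig1 and Vldlr, in rat heart cell cultures given celecoxib, a selective inhibitor of cyclooxygenase-2. The members were found by gene name among the non-control probes of the array, which gave 14 of 41012 probes, and all 14 passed the filter on dim probes. The cultures were made from neonatal rat hearts, grown for 1 day and then treated, and each of the 20 samples was hybridised to a single-colour Agilent array. There were 3 arrays for each of 6 celecoxib groups, at 1/25, 1/5 or 1 of a reference concentration and harvested at 6 h or 24 h, and 2 arrays of untreated cultures. The labels state neither the absolute concentration nor a harvest time or vehicle for the untreated cultures. They also do not say whether the arrays of a group came from separate cultures, so p-values here measure the spread between arrays alone, and that spread may be technical.

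Cells make cholesterol from acetyl-CoA by way of mevalonate, isoprenoids, squalene and lanosterol. When sterols in the membrane of the endoplasmic reticulum run low, SCAP carries the SREBP transcription factors to the Golgi, where they are cut, and the released part enters the nucleus and activates most genes of this pathway. INSIG proteins hold SCAP back when sterols are plentiful. Vldlr encodes the very low density lipoprotein receptor, which binds lipoproteins carrying apolipoprotein E and is abundant in heart muscle, a tissue that draws much of its fuel from fatty acids.

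The sequences of 6 probes are shown because the changes described further on were read from them. Positions are those of the array's own annotation, on the rat build rn3, and the letters are in lower case throughout, with nothing marked. The first Idi1 probe lies at chr17:72568057-72568116 on the minus strand, and the second covers 60 bases spread over chr17:72570927-72571331 on the same strand. The Sqle probe lies at chr7:96145679-96145738 on the plus strand, and the 60 bases of the Vldlr probe are spread over chr1:230858127-230859072 on the plus strand. The second Hmgcs1 probe lies at chr2:51680037-51680096 on the plus strand, and the second Insig1 probe at chr4:2578292-2578348 on the minus strand.
Idi1 probe 1: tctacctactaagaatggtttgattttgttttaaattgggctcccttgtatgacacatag
Idi1 probe 2: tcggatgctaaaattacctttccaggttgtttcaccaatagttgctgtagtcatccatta
Sqle probe 1: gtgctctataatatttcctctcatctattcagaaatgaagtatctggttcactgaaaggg
Vldlr probe 1: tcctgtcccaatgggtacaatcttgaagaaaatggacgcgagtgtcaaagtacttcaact
Hmgcs1 probe 2: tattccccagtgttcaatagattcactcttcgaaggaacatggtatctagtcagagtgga
Insig1 probe 2: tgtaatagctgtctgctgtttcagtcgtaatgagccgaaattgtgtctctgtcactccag

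Promoter windows, from 250 bases before to 50 bases after the start of the gene, were matched in RefSeq (build GRCr8) for 6 of the 8 genes, the exceptions being Sqle and Fdft1. The windows of Idi1 and Vldlr are shown because these genes carried the changes that passed the test, in opposite directions. The Idi1 window lies at chr17:66547475-66547774 on the minus strand and the Vldlr window at chr1:234240436-234240735 on the plus strand, and each is written 5′ to 3′ along its gene. Capitals mark matches to CCAAT on either strand, the motif bound by NF-Y, a factor that works beside SREBP at many sterol genes.
Idi1 promoter: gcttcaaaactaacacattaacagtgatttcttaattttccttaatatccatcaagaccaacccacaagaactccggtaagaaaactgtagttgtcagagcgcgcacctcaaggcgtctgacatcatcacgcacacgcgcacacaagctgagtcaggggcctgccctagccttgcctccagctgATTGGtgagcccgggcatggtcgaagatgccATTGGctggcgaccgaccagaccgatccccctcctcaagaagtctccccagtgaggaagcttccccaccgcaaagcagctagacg
Vldlr promoter: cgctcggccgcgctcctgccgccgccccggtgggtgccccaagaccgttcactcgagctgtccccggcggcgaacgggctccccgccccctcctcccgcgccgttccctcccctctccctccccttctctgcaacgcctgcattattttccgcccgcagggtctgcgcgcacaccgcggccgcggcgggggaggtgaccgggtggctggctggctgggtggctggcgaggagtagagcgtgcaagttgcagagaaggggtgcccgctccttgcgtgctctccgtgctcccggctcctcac

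The CCAAT letters occurred 2 times each in the windows of Idi1, Hmgcs1 and Fdps and 1 time in that of Insig1, and did not occur in those of Vldlr and Cyp51. Of all 33469 rat promoter windows of the same length, 37.5% held them on either strand. The letters TCACNCCAC, a form of the sterol regulatory element, were in 0 of the 6 windows and in 1.12% of all windows. No window held both motifs, so no matches overlapped, and a match or its lack describes only these letters in these windows.

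Signals were expressed as log2 of the probe's processed signal over the 75th percentile of its array, so that 0 stands for the signal at that percentile. Changes were tested with limma over 27766 genes, with 1 probe standing for a gene, and called at a Benjamini-Hochberg adjusted p under 0.05. The labelled cell type was checked against markers: each of the 12 cardiomyocyte markers exceeded background clearly on every one of the 20 arrays, and markers of other cells were present too. The filter kept 8 of 8 fibroblast, 4 of 5 smooth muscle, 5 of 6 macrophage and leukocyte, 3 of 6 endothelial and 2 of 4 adipocyte markers. Ttr and Fgb of the hepatocyte markers and Alas2 of the erythroid ones cleared background on each of the 20 arrays, whereas Alb, Apoa1 and Hbb were not kept. Between 63.5% and 83.1% of the probes of an array were well above background. The untreated arrays differed, with 82.5% in replicate 1 and 66.1% in replicate 2. Their ratios of the 75th percentile to the median signal were 4.07 and 5.27, and those of the 1/25 arrays at 6 h were 6.79, 4.96 and 6.99. The part of these differences in the changes described further on was not tested. The arrays were scanned on 2 days, which the file headers distinguish. The second day held 6 arrays: all 3 of the 1/5 group at 6 h, 2 of the 1/25 group at 6 h and 1 of the full concentration at 6 h. Both untreated arrays and all 24 h arrays were scanned on the first day, so that comparisons of 24 h with untreated lay within 1 day. They did not lie within a slide: the arrays came from 6 slides, and no 24 h array shared the slide of the untreated arrays. Of the 6 h arrays, only the full-concentration arrays of the first day shared that slide. The correlation within slides, estimated in limma, was 0.345, so slide and treatment are not separated in most comparisons with untreated. Saturated probes made up 7.77% to 9.21% of an array on the second day and 5.74% to 7.89% on the first.

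**Figure D1:**
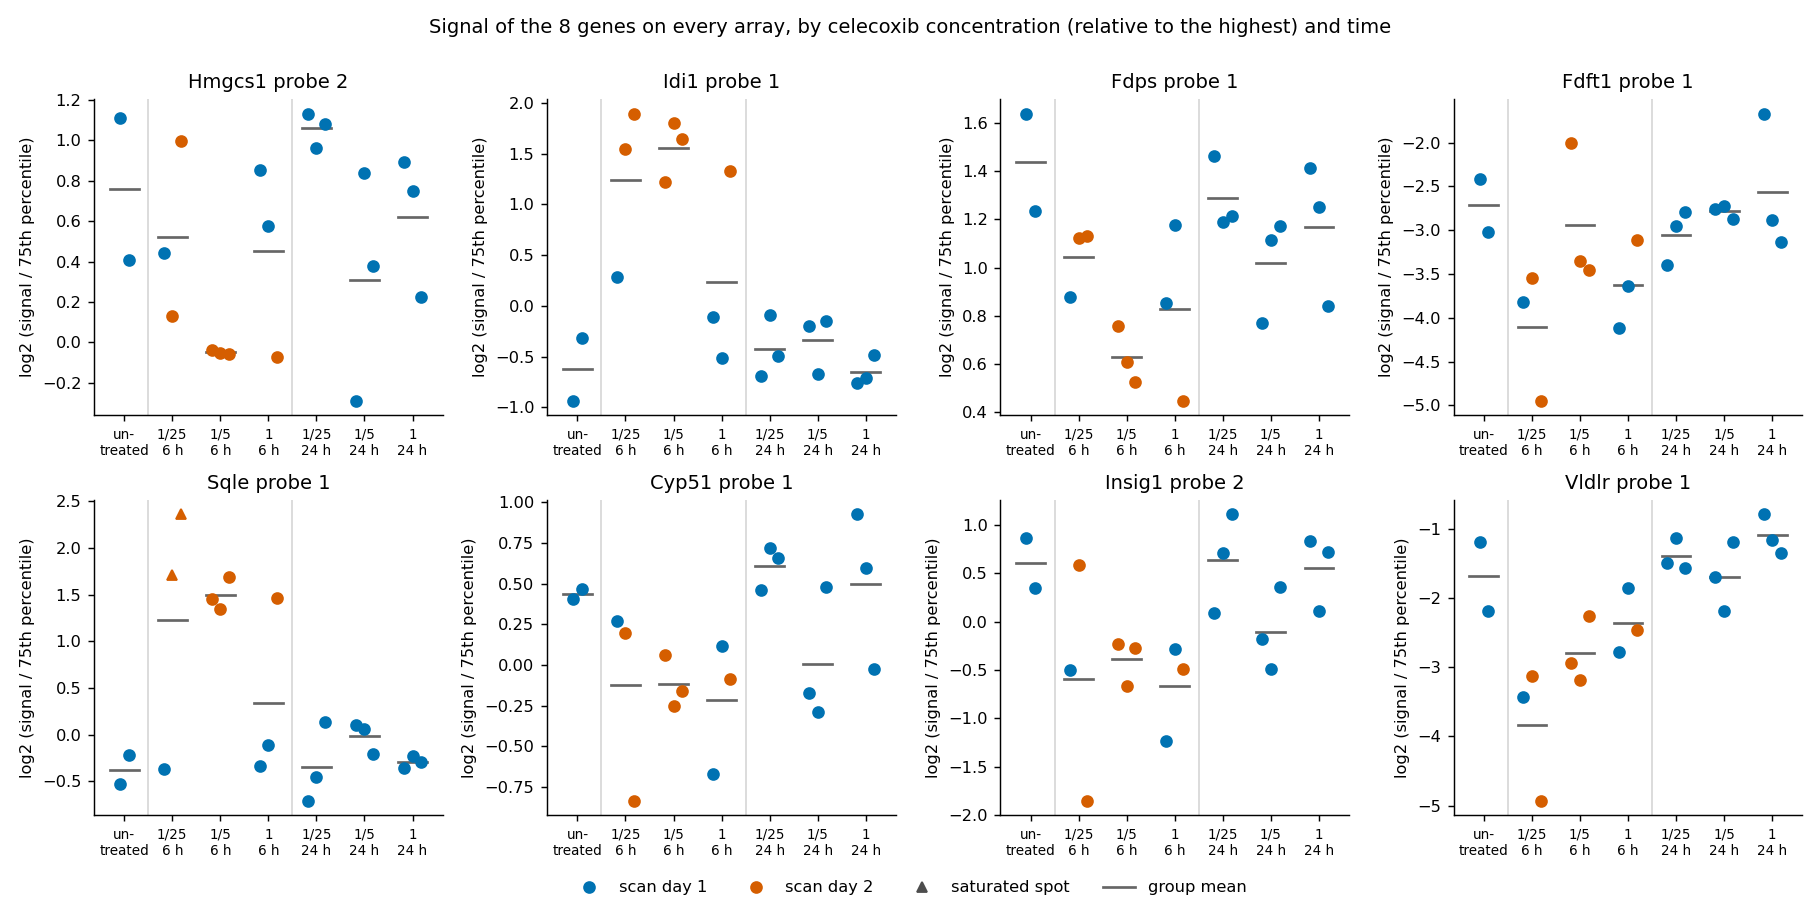
Log2 signal over the array's 75th percentile for each array, in 1 panel for each of the 8 genes (for Hmgcs1 and Insig1 the second probe), grouped as untreated, 6 h at 1/25, 1/5 and 1, and 24 h at 1/25, 1/5 and 1. Colour gives the scan day, triangles are saturated spots and bars are group means; Idi1 and Sqle are high on the arrays of the second scan day, and Vldlr is lowest in the 1/25 group at 6 h, with a mean of −3.83.

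At 6 h, 2 members changed against untreated at 1/25, 1 at 1/5 and 0 at the full concentration. Idi1, whose product turns isopentenyl diphosphate into dimethylallyl diphosphate, rose at 1/5 and at 1/25. Vldlr fell at 1/25. Among all genes tested, 5.95% were called at 1/25 (2.27% higher and 3.68% lower), 6.52% at 1/5 (4.46% higher and 2.06% lower) and 0.407% at the full concentration, where limma, with the second probes of Hmgcs1 and Insig1, gave 2 members (Fdps and Insig1) an unadjusted p under 0.05 beside 18.6% of all genes. With scan day as a term in the model, 1 member was called at 1/25, 0 at 1/5 and 0 at the full concentration, beside 11.6%, 1.12% and 8.17% of all genes, and with those second probes 3, 0 and 2 members had an unadjusted p under 0.05, beside 33.2%, 20.4% and 29.2% of all genes. Because these are bulk cultures, fewer cells of a type and less RNA per cell cannot be told apart in any of these values. For several members, groups of arrays are described as lying apart from the 2 untreated arrays or from another group. The share of all genes with such a separation was not counted. With so few arrays, and untreated arrays shared by all groups, it describes the arrays and is no test.

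Hmgcs1 encodes the cytosolic enzyme that makes HMG-CoA at the entry to the mevalonate pathway. Its brighter probe was saturated on all 20 arrays and gives no fold. The second probe was saturated on none, and read 0.44, 0.13 and 1.00 in the 1/25 arrays at 6 h, −0.036, −0.053 and −0.058 in the 1/5 arrays, 0.85, 0.58 and −0.071 in the full-concentration arrays, and 1.11 and 0.41 in untreated arrays. The 1/5 arrays lay below both untreated arrays, while the other groups overlapped with them. The change at 1/5 was −0.81 ± 0.37 (SE), with an adjusted p in limma of 0.19.

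Idi1 was the member that rose. Its first probe read 0.28, 1.55 and 1.90 in the 1/25 arrays at 6 h, and 1.22, 1.80 and 1.64 in the 1/5 arrays, against −0.93 and −0.32 in untreated arrays. No array of either group overlapped with the untreated ones, but the 1/25 array scanned on the first day was the lowest of the 6. The log2 change was 2.18 ± 0.49 (SE) at 1/5 (a 4.53-fold signal, adjusted p in limma 0.0243) and 1.87 ± 0.49 at 1/25 (3.65-fold, adjusted p 0.0385). With scan day as a term in the model the changes were 0.64 (adjusted p 0.337) and 0.84 (adjusted p 0.0901). Within the first scan day the 1/25 change was 0.91, where that group had 1 array. The 1/5 group has no value within a day, since no untreated array shares its day. The call at 1/5 was also lost without untreated replicate 1, at 1.87 (adjusted p 0.227), and without any single array of the 1/5 group, at 2.05 to 2.35 (adjusted p 0.0538 to 0.0869). That at 1/25 was lost without untreated replicate 1, at 1.56 (adjusted p 0.372), and without 1/25 replicate 3, at 1.54 (adjusted p 0.143).

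At the full concentration Idi1 read −0.11, −0.51 and 1.33 at 6 h, and the high value was the array of the second scan day. Its change there was 0.86 ± 0.49, with an adjusted p of 0.352. The second Idi1 probe, dim and well above background on 14 of 20 arrays, differed from untreated by 1.04 ± 0.52 at 1/5 (adjusted p 0.234) and by 0.49 ± 0.52 at 1/25 (adjusted p 0.567). With scan day in the model its limma differences were −0.48 at 1/5 (adjusted p 0.572) and −0.52 at 1/25 (adjusted p 0.36). In that model the Idi1 probes disagreed in direction at both concentrations.

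Fdps, which joins isoprenoid units into farnesyl diphosphate, read 0.88, 1.12 and 1.13 in the 1/25 arrays at 6 h, 0.76, 0.61 and 0.52 in the 1/5 arrays, 0.85, 1.18 and 0.45 in the full-concentration arrays, and 1.64 and 1.24 in untreated arrays. All 9 celecoxib arrays at 6 h lay below both untreated arrays. No change passed the test: the differences were −0.39 ± 0.27 at 1/25 (adjusted p 0.354), −0.81 ± 0.27 at 1/5 (adjusted p 0.0802) and −0.61 ± 0.27 at the full concentration (adjusted p 0.247). The second Fdps probe gave −0.058, −0.16 and −0.56 in the same order, with the lowest adjusted p at 0.471.

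Fdft1, the squalene synthase gene, read −3.82, −3.55 and −4.95 in the 1/25 arrays at 6 h, against −2.41 and −3.02 in untreated arrays. Every 1/25 array was below both untreated arrays, yet the difference of −1.39 ± 0.51 had an adjusted p of 0.093 in limma. Without 1/25 replicate 2 it was −1.67 (adjusted p 0.0482). At 1/5 and at the full concentration the Fdft1 differences were −0.22 and −0.91, with adjusted p-values of 0.827 and 0.349.

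Sqle encodes squalene epoxidase, an oxygen-dependent step that limits the flow to sterols. It read −0.37, 1.71 and 2.37 in the 1/25 arrays at 6 h, with the 2 higher spots saturated, and 1.45, 1.35 and 1.69 in the 1/5 arrays, against −0.53 and −0.22 in untreated arrays. The 1/25 array scanned on the first day lay between the untreated arrays, and the 5 arrays of the second day lay above them. The differences of 1.61 ± 0.60 at 1/25 (adjusted p 0.0958) and 1.88 ± 0.60 at 1/5 (adjusted p 0.0669) missed the threshold. With scan day in the model they were 0.25 and −0.18, and within the first day the 1/25 difference was 0.007. Without 1/25 replicate 1, the array of the first day, the Sqle difference was 2.42 (adjusted p 0.00924), and both remaining spots of that group were saturated, so its size is not measured.

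Cyp51 encodes the lanosterol demethylase, the cytochrome P450 of the pathway. Its signal was 0.27, 0.20 and −0.84 in the 1/25 arrays at 6 h, 0.064, −0.25 and −0.16 in the 1/5 arrays, −0.67, 0.11 and −0.086 in the full-concentration arrays, and 0.41 and 0.46 in untreated arrays. All 9 treated arrays were below the untreated ones. The mean differences were −0.56, −0.55 and −0.65 at 1/25, 1/5 and 1, and the adjusted p-values were 0.33, 0.379 and 0.354.

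Insig1, the sterol-regulated brake on SREBP processing, was covered by 4 probes. The brightest was saturated on 18 of 20 arrays. The second probe read −0.50, 0.59 and −1.85 in the 1/25 arrays at 6 h, −0.23, −0.67 and −0.27 in the 1/5 arrays, −1.24, −0.29 and −0.49 in the full-concentration arrays, and 0.87 and 0.35 in untreated arrays. All but 1 of the 9 treated arrays lay below both untreated arrays. Its differences of −1.20 ± 0.53, −0.996 ± 0.53 and −1.28 ± 0.53 at 1/25, 1/5 and 1 had adjusted p-values of 0.147, 0.262 and 0.219. Probes 3 and 4 gave −0.27 and −0.066 at 1/25, and 0.21 and 0.86 at 1/5, so the probes of this gene disagreed in direction at 1/5.

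Vldlr was the member that fell. It read −3.43, −3.13 and −4.93 in the 1/25 arrays at 6 h, −2.94, −3.19 and −2.26 in the 1/5 arrays, −2.79, −1.85 and −2.47 in the full-concentration arrays, and −1.18 and −2.18 in untreated arrays. The 1/25 and 1/5 arrays all lay below both untreated arrays, and the full-concentration arrays overlapped with them. The log2 change at 1/25 was −2.15 ± 0.49 (SE), a 0.226-fold signal, with an adjusted p in limma of 0.0259. It was −1.90 with scan day in the model (adjusted p 0.0451). Within the first scan day it was −1.745, where the 1/25 group at 6 h had 1 array. The call was lost without untreated replicate 1, at −1.65 (adjusted p 0.318), and without 1/25 replicate 3, at −1.595 (adjusted p 0.0942). It was also lost with slide as a random block and with a replicate block. At 1/5 the difference was −1.11 ± 0.49 (adjusted p 0.171) and at the full concentration −0.68 ± 0.49 (adjusted p 0.462).

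Marker levels of other cells differed from untreated beside this fall and in other groups too. The summed level of the 5 kept macrophage and leukocyte markers, in multiples of the 75th percentile, was 2.30 to 5.06 in the 1/25 arrays at 6 h and 2.78 to 4.78 at the other concentrations at 6 h. At 24 h it was 3.37 to 4.42, including the 1/25 group, where Vldlr was not called, and in untreated arrays it was 5.36 to 5.46. Cd14, 1 of these 5, fell by 1.25 on the log2 scale at 1/25 and 6 h (adjusted p in limma 0.0433), and the others are not given singly. The 12 cardiomyocyte markers summed to 23.5 to 61.79 at 1/25 and 6 h, a range that spans the 34.07 to 37.17 of untreated arrays. The 3 kept endothelial markers of 6 listed summed to 3.37 to 5.055 at 1/25 and 6 h, 3.29 to 3.65 at 1/5 and 3.797 to 4.59 at the full concentration, against 3.07 to 3.096 in untreated arrays, with Tek, Vwf and Tie1 not kept. The part of these markers in the Vldlr and Idi1 changes was not tested.

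**Figure D2:**
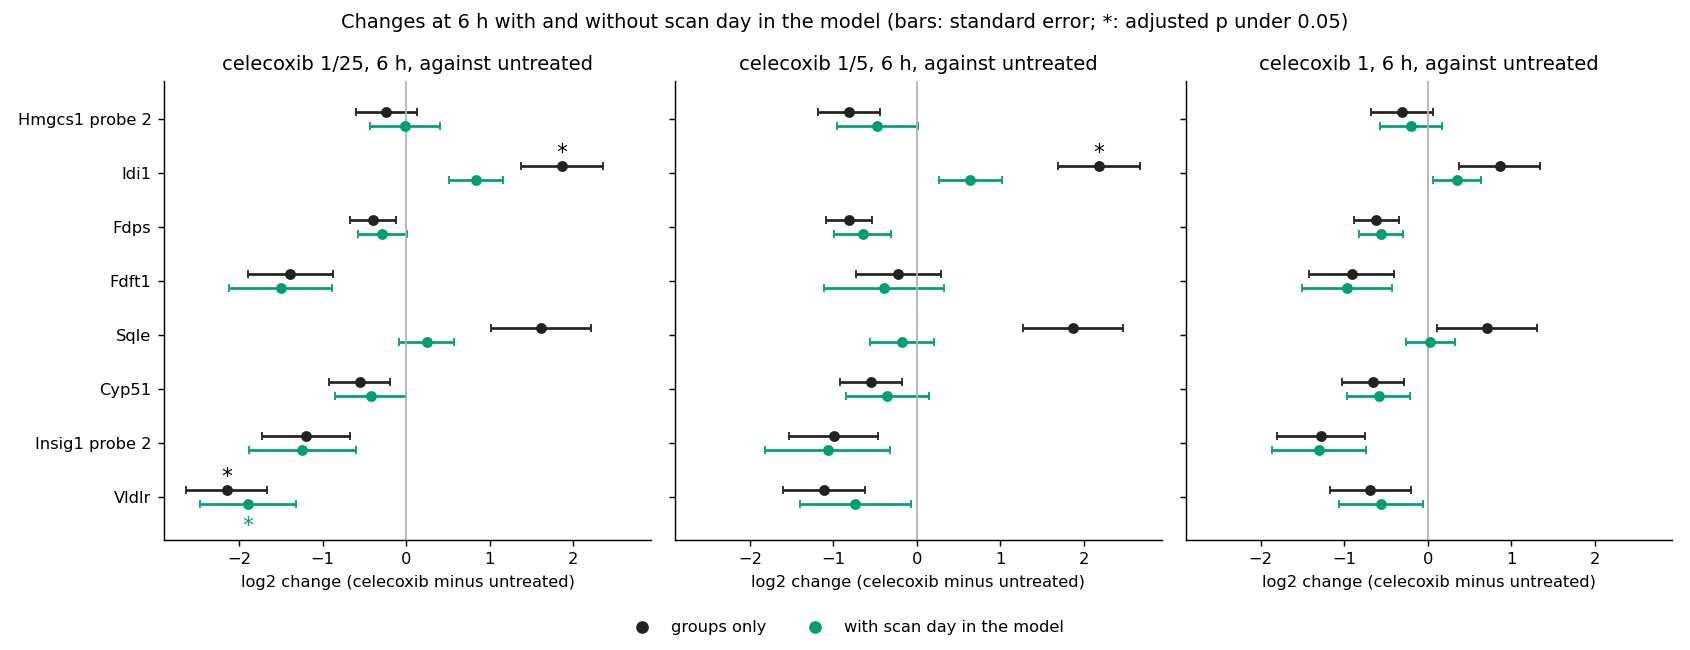
Log2 change from untreated at 6 h with its SE, at 1/25, 1/5 and 1, for each of the 8 genes (second probes of Hmgcs1 and Insig1), with and without scan day as a term; asterisks mark adjusted p under 0.05. The Idi1 change at 1/5 is 2.18 without the term and 0.64 with it, whereas the Vldlr change at 1/25 is −2.15 without it and −1.90 with it.

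With the second probes of Hmgcs1 and Insig1, 6 of the 8 members read lower than untreated at each of the 3 concentrations at 6 h, all but Idi1 and Sqle. Their medians were −0.48, −0.68 and −0.63 at 1/25, 1/5 and 1, beside medians over all genes of −0.20, −0.19 and −0.078. Of all genes, 59.1%, 60.3% and 54.4% read lower. The 3 comparisons share the untreated arrays. These probes were chosen after it was seen that the brighter ones were saturated.

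Probes of Idi1, Sqle and Insig1 read higher on the second scan day. Among the 9 arrays at 6 h, the 6 of the second day exceeded the 3 of the first by 1.69 for the first Idi1 probe, by 1.52 for the second and by 1.95 for Sqle. Insig1 probes 3 and 4 were higher by 1.43 and 1.87, Fdps probe 2 by 0.62 and Fdft1 by 0.46, while Insig1 probe 2 differed by 0.19, Cyp51 by −0.083, Fdps probe 1 by −0.21, Vldlr by −0.46 and the second Hmgcs1 probe by −0.47. Over the 20 arrays, and for the probe standing for each gene, scan day held 91.5% of the variance of Sqle and 90.2% of that of Idi1, against 43.4% for Vldlr, 6.37% for Fdft1 and a median of 20% over all genes. As large a share as that of Sqle was found for 0.505% of genes and as large as that of Idi1 for 0.766%. The arrays of the second day were all celecoxib arrays at 6 h, so these shares also hold differences of time and concentration. The 7 groups, which overlap with scan day, held 61.3% of the variance of Sqle, 77.8% for Idi1, 79.7% for Vldlr and 54.1% for Fdft1. At 1/5, where all 6 h arrays belong to the second day, celecoxib and scan day cannot be told apart without the other groups.

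**Figure D3:**
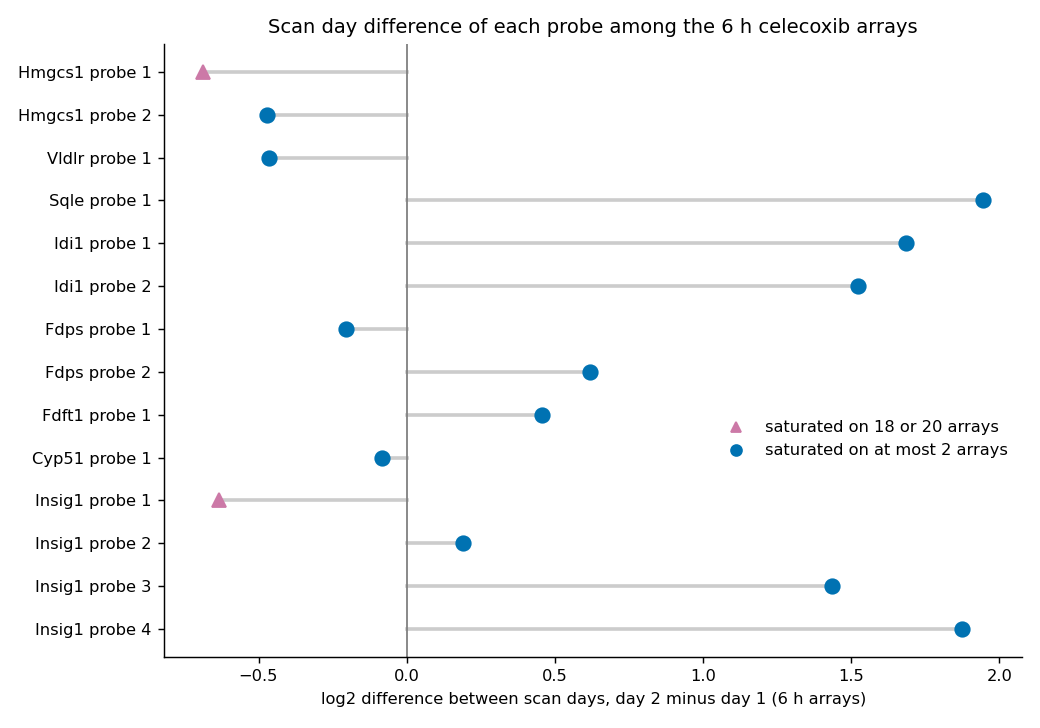
Mean log2 signal of the 6 arrays of the second scan day minus that of the 3 arrays of the first, among the arrays at 6 h, for each of the 14 probes. Sqle, both Idi1 probes and Insig1 probes 3 and 4 lie between 1.43 and 1.95, and the other 9 probes between −0.69 and 0.62.

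At 24 h none of the 8 members differed from untreated by the test. In limma, with the second probes of Hmgcs1 and Insig1, 0 had an unadjusted p under 0.05 at each of the 3 concentrations. Beside them 11.4%, 14.4% and 11.1% of all genes had such a p at 1/25, 1/5 and 1. In the fit with the brightest probes 0 members were called, while 0.285%, 0.285% and 0.0648% of all genes were called at 1/25, 1/5 and 1. With scan day as a term these shares were 0.857%, 1.39% and 0.45%, again with 0 members. Idi1 read −0.69, −0.085 and −0.50 in the 1/25 arrays, −0.20, −0.67 and −0.15 in the 1/5 arrays, −0.76, −0.71 and −0.48 in the full-concentration arrays, and −0.93 and −0.32 in untreated arrays. These groups overlapped, and the Idi1 differences were 0.20, 0.29 and −0.029. The 95% intervals ran from −0.83 to 1.23, from −0.74 to 1.32 and from −1.06 to 1.00, which is the precision this number of arrays gives.

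Vldlr at 24 h read −1.50, −1.13 and −1.56 in the 1/25 arrays, −1.69, −2.19 and −1.19 in the 1/5 arrays, and −0.78, −1.15 and −1.34 in the full-concentration arrays, against −1.18 and −2.18 in untreated arrays. The groups overlapped. The differences were 0.28, −0.007 and 0.59, with 95% intervals from −0.74 to 1.31, from −1.03 to 1.02 and from −0.44 to 1.61. Sqle differed by 0.033, 0.36 and 0.087. Of the other members, with the second probes of Hmgcs1 and Insig1, the differences ran from −0.71, for Insig1 at 1/5, to 0.30, for Hmgcs1 at 1/25.

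The levels of Vldlr were highest at 24 h with the full concentration, at a mean of −1.09, followed by 24 h with 1/25 at −1.40, untreated at −1.68, 24 h with 1/5 at −1.69, 6 h with the full concentration at −2.37, 6 h with 1/5 at −2.79 and 6 h with 1/25 at −3.83. Each group overlapped with its neighbour in this order.

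Within celecoxib, Vldlr was higher at 24 h than at 6 h. At 1/25 the difference was 2.43 ± 0.435 (SE), 5.40-fold, with an adjusted p in limma of 0.012, and all 3 arrays at 24 h lay above all 3 at 6 h. It was 2.18 with scan day in the model (adjusted p 0.0444) and 2.48 without 1/25 24 h replicate 1 (adjusted p 0.0577). Within the first day it was 2.03, where the 1/25 group at 6 h had 1 array. With slide as a random block the call was lost. The differences at 1/5 and at the full concentration were 1.10 ± 0.435 (adjusted p 0.121) and 1.27 ± 0.435 (adjusted p 0.314). Vldlr was the member called of the 8 at 1/25, and 2.45% of all genes were called there, 1.05% as higher (2.23% with scan day as a term).

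Idi1 ran the other way at 1/5, where its difference between 24 h and 6 h was −1.89 ± 0.44 (adjusted p 0.0321), and was the member called of the 8, beside 4.75% of all genes, 3.13% as lower. Every array at 24 h was below every array at 6 h. All 24 h arrays were of the first scan day and all 6 h arrays of the second, and with scan day in the model the difference was −0.35 (adjusted p 0.825) and 0.0252% of all genes were called. The call was lost without any 1 of the 6 arrays, at −2.06 to −1.73 (adjusted p 0.0738 to 0.123). At 1/25 the Idi1 difference was −1.67 ± 0.44 (adjusted p 0.0511), and Sqle differed by −1.58 (adjusted p 0.108). Without 6 h replicate 1, the 1/25 array of the first scan day, these were −2.145 (adjusted p 0.00655) and −2.38 (adjusted p 0.00475), where both remaining 6 h spots of Sqle were saturated and the size of its difference is not measured. At the full concentration 0 members were called in limma and, with the second probes of Hmgcs1 and Insig1, 4 had an unadjusted p under 0.05 (10.2% of all genes), while 0.177% of all genes were called (1.4% with scan day as a term).

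Between concentrations 0 members were called. At 6 h, full concentration against 1/25, Vldlr differed by 1.46 ± 0.435 and Idi1 by −1.01 ± 0.44, the 2 members with an unadjusted p under 0.05 in limma (adjusted p 0.769 and 0.78), beside 6.34% of all genes, and 0% of all genes were called. At 24 h, with the second probes of Hmgcs1 and Insig1, 0, 0 and 1 member (Hmgcs1) had an unadjusted p under 0.05 in limma in the comparisons of 1 with 1/25, 1 with 1/5 and 1/5 with 1/25. Beside them 2.97%, 5.41% and 3.84% of all genes had such a p, and 0%, 0.0036% and 0% of all genes were called. The effect of concentration, 1 against 1/25, was also compared between 24 h and 6 h. In limma 0 members were called, 0 had an unadjusted p under 0.05 and 0% of all genes were called, and the Vldlr value of −1.16 had a 95% interval from −2.46 to 0.14.

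Around the 8 members, lists of mevalonate, squalene to cholesterol, sterol sensing, lipoprotein receptor, efflux and SREBP fatty acid genes held 50 kept genes. At 6 h, 3 of the 50 rose and 2 fell at 1/25, 3 rose and 0 fell at 1/5, and 0 changed at the full concentration. These are 10%, 6% and 0% of the 50, beside the 5.95%, 6.52% and 0.407% of all genes given above. With scan day as a term 2, 1 and 2 of the 50 were called at 1/25, 1/5 and 1, beside 11.6%, 1.12% and 8.17% of all genes. With the second probes of Hmgcs1 and Insig1, 9 of the 50 (18%) had an unadjusted p under 0.05 in limma at the full concentration, beside 18.6% of all genes. In the fit without scan day, besides Idi1, the genes that rose at 1/25 and 1/5 were Lrpap1 and Lpl. Besides Vldlr, the gene that fell at 1/25 in that fit was Acaca. In the squalene to cholesterol list, 10 of 11 genes read lower at 1/25 with 0 called, while 59.1% of all genes read lower. Its median was −0.42 without scan day in the model and −0.062 with it. Over all genes the medians were −0.199 and −0.123, with a probe saturated on no array where a gene had one. The mevalonate list, with the second Hmgcs1 probe, had a median of −0.31 without it and −0.013 with it.

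Lrpap1, a chaperone of the receptor family that includes Vldlr, rose by 2.15 ± 0.54 at 1/5 (adjusted p 0.0312) and by 1.95 at 1/25 (adjusted p 0.0451). Lpl, the lipase that frees fatty acids from lipoproteins at the vessel wall, rose by 1.38 ± 0.33 (adjusted p 0.0274) and by 1.26 (adjusted p 0.0379). Its spot was saturated on 1 of the 1/25 arrays at 6 h, and a Lpl probe saturated on no array gave 1.91 at 1/5 (adjusted p 0.0186) and 1.71 at 1/25 (adjusted p 0.0262). With scan day in the model none of the values of the brighter probes passed, the lowest adjusted p being 0.0862, while the unsaturated Lpl probe gave 1.01 at 1/25 (adjusted p 0.0484). Both genes' calls were also lost without untreated replicate 1, with Lrpap1 at 2.255 (adjusted p 0.204) and 2.05 (adjusted p 0.291) and Lpl at 1.26 (adjusted p 0.229) and 1.15 (adjusted p 0.327) at 1/5 and 1/25. Their calls at 1/5 were lost without any single 1/5 array, and those at 1/25 without 1/25 replicate 3. The Lrpap1 calls were lost without untreated replicate 2 too, and with the mean of its 2 kept probes. At 6 h Lrpap1 read −2.10 in the 1/25 array of the first scan day and −0.78 and 0.24 in those of the second. Untreated arrays read −2.72 and −2.93. Acaca, the acetyl-CoA carboxylase gene, differed by −1.57 ± 0.44 at 1/25 (adjusted p 0.0466), with untreated arrays at 0.36 and −1.23, and by −1.61 with scan day (adjusted p 0.0547). Without untreated replicate 1 the Acaca difference was −0.77 (adjusted p 0.547). The Acaca call was also lost with the mean of its 2 kept probes and with the deposited table of values.

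Srebf1, Srebf2, Lss and Dhcr7 were not called in any comparison with untreated. The differences at 1/25 and 6 h were −0.099 for Srebf1, −0.42 for Lss and −0.48 for Dhcr7. Srebf2 was well above background on 6 of 20 arrays and on none of the 1/25 arrays at 6 h, and no difference is given. At 24 h against untreated, limma called 0 of the 50 genes at any concentration, and 4, 3 and 3 had an unadjusted p under 0.05 at 1/25, 1/5 and 1, which is 8%, 6% and 6% beside 11.3%, 14.4% and 10.9% of all genes. With scan day as a term 1 of the 50, the dim Sorl1 described below, was called lower at each concentration. Over all genes 0.857%, 1.39% and 0.45% were called with that term at 1/25, 1/5 and 1. At 24 h against 6 h, Idi1 at 1/5 and Vldlr at 1/25 were the genes of the 50 that were called.

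**Figure D4:**
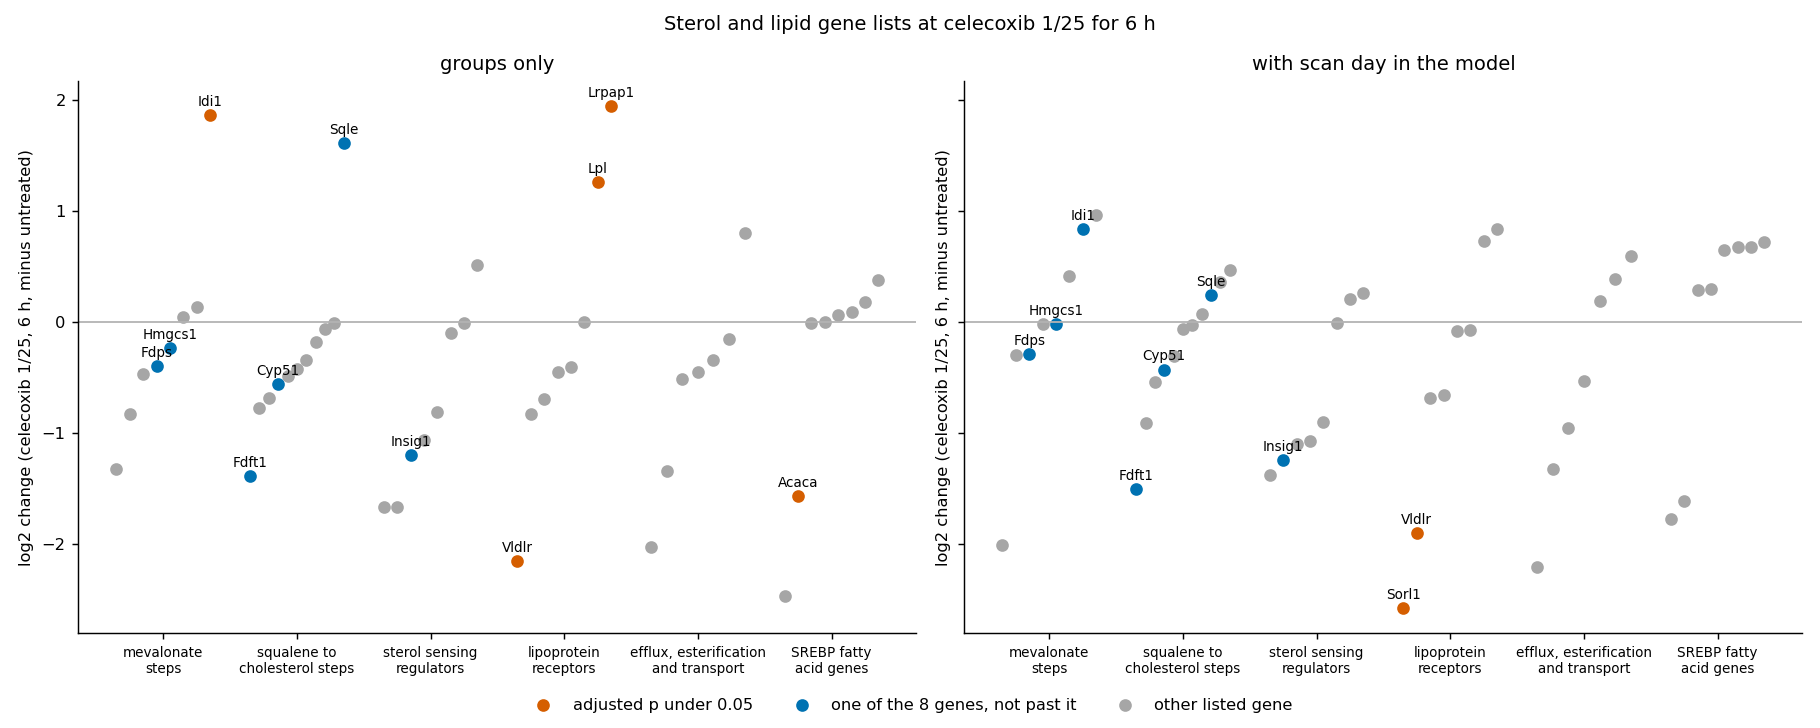
Log2 change from untreated at 1/25 and 6 h of every kept gene of the 6 lists, in 1 column a list, in the left panel without and in the right with scan day as a term, with second probes for Hmgcs1 and Insig1. Idi1 lies at 1.87 and 0.84 in the 2 panels, and Vldlr at −2.15 and −1.90.

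The 5 genes whose signals followed the mean of the 8 members most closely were Psd2, Asb16, Pc, Slc10a4 and Pbk, of 5431 named genes well above background on all arrays. Their Pearson correlations over the 20 arrays were 0.757, 0.737, 0.733, 0.729 and 0.725, and over the 14 arrays of the first day 0.683, 0.693, 0.716, 0.668 and 0.871. The arrays share scan days and slides, and the mean includes the saturated probes of Hmgcs1 and Insig1, so these values are a description. Pairs of members correlated from −0.768, for Vldlr and Idi1, to 0.93, for Sqle and Idi1, over the 20 arrays. Their centred mean ran only from −0.374 to 0.245 and is not a profile that all 8 share.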

How the data were processed

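RNA of neonatal rat heart cultures was measured on single-colour (Cy3) arrays. Per the file headers, the authors extracted spot intensity with Agilent Feature Extraction 9.5.3.1, and the deposited processed signal is an intensity already background-subtracted. The deposited table of values is a ratio on a linear scale: as its values show, the authors divided each probe by its array's median and by its untreated mean. It was used as an alternative.

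Here outlier spots were left out, spots of a probe were averaged, and log2 of the signal was taken minus log2 of the array's 75th percentile. A probe was kept if all arrays of some group had it well above background (31739 of 41012), and the brightest stood for its gene. All 20 arrays entered 1 limma 3.58.1 fit of 7 group means (R 4.3.3, with data.table at 1.17.8, jsonlite 2.0.0, statmod 1.5.0), two-sided, adjusted by Benjamini-Hochberg over all genes and called under 0.05. The number of arrays limits the precision. The steps were tested on simulated data with independent noise. Those data held no effect of scan day or slide and no saturation, so that test does not cover them. Alternatives were scan day and slide as blocks, the first scan day alone, a replicate block, quantile and normexp (offset 50) processing, no filter, other probe rules, the deposited table and leaving out arrays.

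The 8 members, Srebf1, Srebf2, Lss and Dhcr7 are named, then at most 4 called list genes a comparison, and the 5 most similar genes. Some genes of the lists are not reported here. Members and lists were chosen with earlier results of these data known.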

Additional observations from a re-analysis of the deposited data

Results flagged for a closer look

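Both results differ between times at the same concentration, by the limma test of that difference. For Idi1 at 1/5, the change from untreated at 24 h minus that at 6 h was −1.89 (adjusted p 0.0321). All 3 arrays at 24 h were of the first scan day and all 3 at 6 h of the second. For Vldlr at 1/25, the corresponding value was 2.43 (adjusted p 0.012), and 1 of the 3 arrays at 6 h shared the scan day of the 24 h arrays.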

How the results depend on the processing

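The counts of called members depended on the settings; alternatives with a probe saturated on no array, and scan day as a term without an untreated array, were chosen after seeing the data. At 1/5 and 6 h the 1 call became 0 with scan day as a term (also with unsaturated probes, or without untreated replicate 1 or 2), slide as a random block or the mean of a gene's probes, and 2 with quantile normalization (Idi1, Fdps) or the deposited table (Idi1, Sqle). At 1/25 and 6 h the 2 calls became 1, Vldlr, with scan day as a term (also with unsaturated probes), no filter or the mean of probes. They became 0 within the first day, with slide, with the replicate block, and with scan day without untreated replicate 1, and 3 with the deposited table (Sqle added) or with scan day without untreated replicate 2, where the third is Hmgcs1 read from the probe saturated on all 20 arrays. For 24 h against 6 h at 1/5 the 1 call became 0 with scan day (also with unsaturated probes), slide or the mean of probes. At 1/25 it became 0 within the first day or with slide, and 2 (Vldlr and Idi1) with the replicate block, normexp or the deposited table. Leaving out 1 array gave 0 to 1 calls at 1/5 and 0 to 3 at 1/25 at 6 h, 0 for 24 h against 6 h at 1/5, and 0 to 3 for it at 1/25. In the other comparisons the count was 0 under every alternative run. Over all genes, calls at 6 h ranged from 5 to 5032 at the full concentration (113 in the report's setting), 3 to 3517 at 1/5 (1809) and 15 to 6177 at 1/25 (1652). Samples of the same replicate number share only a number: over 57 such pairs the median correlation of deviations was −0.002 (−0.438 to 0.463). With the replicate block Vldlr at 1/25 and 6 h was −2.10 (adjusted p 0.0537) and Idi1 1.69 (adjusted p 0.0577). Signal saturation limits Hmgcs1, Insig1, Sqle and Lpl, and dim signal limits the second Idi1 probe, Srebf2 and Sorl1, among the genes given values; the causes of these shifts were not tested.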

Other observations

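Sorl1, a sorting receptor of the same receptor family as Vldlr, was chosen after its values were seen. On the 6 celecoxib arrays of the second scan day it read −4.63 to −3.77, and on those of the first scan day −6.75 to −4.69, where 1 array was well above background, against −3.56 and −3.48 in untreated arrays. It has no value on 1/25 6 h replicate 1, since that spot was an outlier. Every celecoxib array with a value lay below both untreated arrays. No fold is given, since 10 of the 11 values on the first scan day were not well above background. Of its 3 probes 1 was kept. With scan day as a term Sorl1 passed in limma in every comparison with untreated, and with no filter on dim probes it passed in none. At 1/25 and 6 h it passed with scan day as a term (adjusted p 0.0127), where the shift between days came from the full-concentration arrays at 6 h alone. It did not pass there in the fit of group means (adjusted p 0.642). The cause was not tested.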
